A study of Mus musculus with 6 samples.

Results

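Mitotic spindle and G2/M genes were examined in haematopoietic stem cells (HSC) of Lig4mut mice and of their wild-type littermates. The list names 35 genes of G2, the spindle checkpoint and cytokinesis. A gene entered where at least 1 probe set of the array was annotated to it and to no other gene. By that rule 34 genes with 80 probe sets were measured, of 18193 genes and 34945 such probe sets on the array. Ccnb1 was not analysed here, because no probe set carried its name in the annotation used.

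The cells were bone marrow HSC sorted as CD150+ CD48- KSL, a gate (KSL: Kit+ Sca-1+, lineage-negative) that selects the most primitive blood-forming cells. There were 3 Lig4mut arrays and 3 wild-type (WT, Lig4+/+) arrays, all from 6 to 8 week-old littermates of a cross between Lig4mut/+ parents. Neither the nature of the Lig4 mutation nor whether an array was 1 mouse or a pool is given in the sources used here. The 3 arrays of each genotype are given as biological replicates, so p-values measure the spread between these samples. The gene's product, DNA ligase IV, rejoins broken DNA ends, and the study is about its part in maintaining these cells. The Lig4 probe set read 7.53, 6.66 and 7.63 (log2) on the WT arrays. On the Lig4mut arrays it read 4.97, 3.16 and 3.10, each below every WT array.

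Cells divide by passing from G2 into mitosis when cyclin A and cyclin B activate the kinase CDK1. The spindle checkpoint then holds chromosome separation until every kinetochore, the protein plate on a centromere, is attached to microtubules, and the anaphase-promoting complex (APC/C) releases it. Aurora and Polo kinases, motor proteins and the chromosomal passenger complex build the spindle and complete cytokinesis. HSC are mostly quiescent, and transcripts of these genes are known to be periodic, made late in the cell cycle.

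Genes of this phase are known for a shared promoter layout. CCAAT boxes, bound by the factor NF-Y, stand upstream of a cell cycle genes homology region (CHR), which is read by the DREAM and MuvB complexes. RefSeq promoter windows (GRCm38.p6), each with 250 bases before and 50 after an annotated start, were found for 26 of the 35 listed genes, in 28 windows of 300 bases. CCAAT, searched on both strands, was in 82.1% of these windows and in 37.4% of all 32851 windows of the table. At least 2 CCAAT matches were in 57.1% of the members' windows and in 11.7% of all windows. The CHR letters TTTGAA or TTCGAA, on either strand, were in 78.6% of the members' windows and in 19.2% of all. Both elements were in 75.0% of the members' windows and in 7.52% of all. In 19 of the 26 genes a CHR match began within 50 bases of the start. A single pair of a CCAAT and a CHR match overlapped, in Cdca8. A match describes these letters and was not tested as a binding site.

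The windows of 5 genes are printed in lower case on the gene's own strand, 5' to 3', with CCAAT and CHR matches of either orientation in capitals. Bub1b and Hmmr are shown as the genes with the lowest p-values of the list, Cdk1 as the central kinase, and Ttk and Nusap1 as the genes with the most negative differences. The Bub1b window is chr2:118597961-118598260, plus strand, the Hmmr window chr11:40733388-40733687, minus strand, the Cdk1 window chr10:69352863-69353162, minus strand, the Ttk window chr9:83834439-83834738, plus strand and the Nusap1 window chr2:119618048-119618347, plus strand.
Bub1b: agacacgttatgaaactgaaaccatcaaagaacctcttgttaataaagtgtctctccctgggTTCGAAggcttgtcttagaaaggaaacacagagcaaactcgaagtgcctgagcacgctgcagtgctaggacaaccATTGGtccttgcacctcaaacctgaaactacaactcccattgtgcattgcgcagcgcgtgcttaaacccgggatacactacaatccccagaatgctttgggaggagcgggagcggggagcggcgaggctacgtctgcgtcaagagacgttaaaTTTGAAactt
Hmmr: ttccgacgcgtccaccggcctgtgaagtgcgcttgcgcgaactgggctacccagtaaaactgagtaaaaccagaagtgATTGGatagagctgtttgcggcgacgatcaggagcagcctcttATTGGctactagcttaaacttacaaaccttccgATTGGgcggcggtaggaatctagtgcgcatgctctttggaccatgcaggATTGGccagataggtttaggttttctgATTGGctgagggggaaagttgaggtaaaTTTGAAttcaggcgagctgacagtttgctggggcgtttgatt
Cdk1: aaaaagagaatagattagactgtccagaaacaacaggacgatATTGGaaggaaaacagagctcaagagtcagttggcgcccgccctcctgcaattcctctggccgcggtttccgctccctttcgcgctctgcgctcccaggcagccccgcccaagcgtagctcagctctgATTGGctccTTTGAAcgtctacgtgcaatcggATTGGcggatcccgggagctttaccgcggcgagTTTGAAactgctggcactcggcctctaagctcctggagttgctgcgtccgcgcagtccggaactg
Ttk: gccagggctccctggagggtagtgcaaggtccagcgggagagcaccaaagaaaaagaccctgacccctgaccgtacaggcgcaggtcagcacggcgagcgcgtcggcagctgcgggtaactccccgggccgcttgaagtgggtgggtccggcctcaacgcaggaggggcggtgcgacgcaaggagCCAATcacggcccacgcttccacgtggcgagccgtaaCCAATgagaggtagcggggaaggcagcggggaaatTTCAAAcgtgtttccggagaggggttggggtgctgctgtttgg
Nusap1: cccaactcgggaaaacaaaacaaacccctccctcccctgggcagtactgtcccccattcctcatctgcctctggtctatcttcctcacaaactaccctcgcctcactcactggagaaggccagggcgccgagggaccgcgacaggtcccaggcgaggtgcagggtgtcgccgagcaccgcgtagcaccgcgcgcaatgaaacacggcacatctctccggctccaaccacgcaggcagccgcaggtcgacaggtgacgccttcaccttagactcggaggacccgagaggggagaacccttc
Hmmr held 5 CCAAT matches and a TTTGAA just past the start, and Cdk1 held 3 CCAAT and 2 TTTGAA matches. Ttk, with a negative difference, had the same layout of CCAAT boxes before a CHR match. Nusap1 held neither element in this window.

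**Figure D1:**
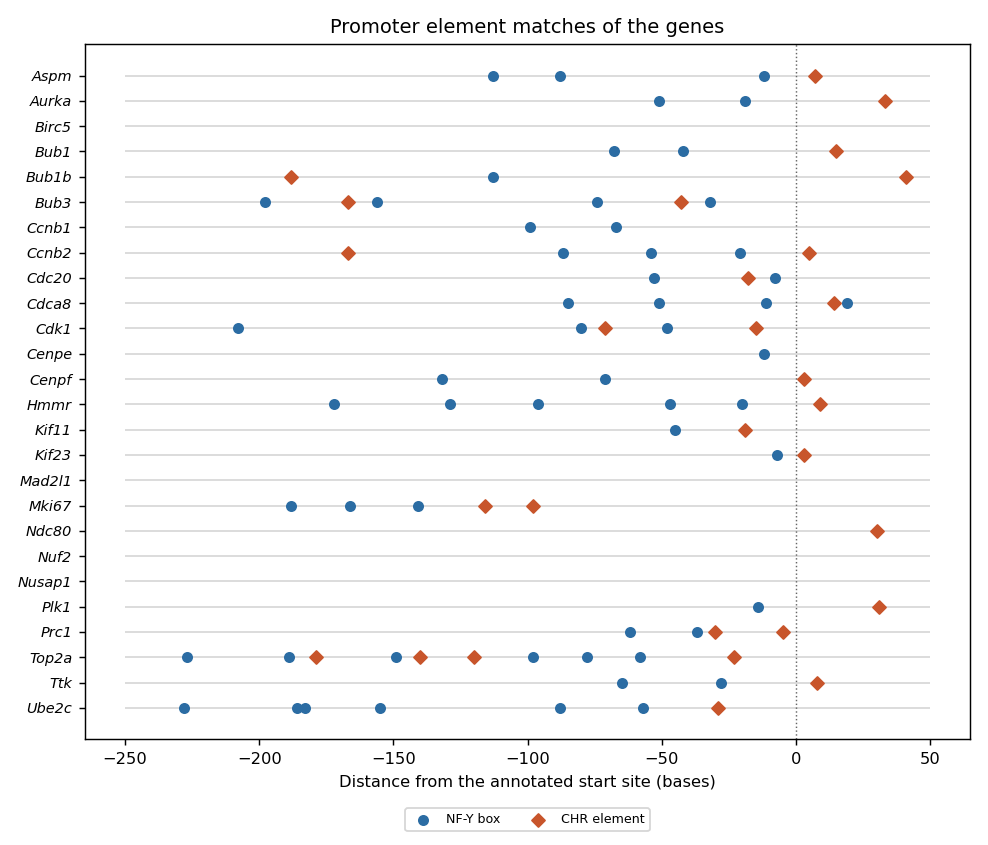
Matches of the NF-Y box (CCAAT, circles) and of the CHR element (TTTGAA or TTCGAA, diamonds) in the windows of 26 genes, by distance in bases from the annotated start. For Bub3 and Prc1, 2 windows each are drawn on 1 line. In 19 of the 26 genes a CHR match begins within 50 bases of the start.

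Values are log2 expression levels, quantile normalized over the 6 arrays, and a difference is Lig4mut minus WT. Deposited array medians were 6.29 to 6.34 in WT and 5.97 to 6.05 in Lig4mut, and after normalization the median difference of all genes was 0.18, which is the level against which the list is read. Genes of the HSC gate were present. Kit was at 10.95, 10.70 and 10.73 in WT and at 9.62, 9.56 and 10.35 in Lig4mut. Each Lig4mut array was below every WT array, with a difference of -0.95 ± 0.26 (limma, adjusted p = 0.16). Slamf1, which encodes CD150, was at 8.89 to 10.71 over the 6 arrays, and the genotypes overlapped. Ly6a, which encodes Sca-1, was not analysed here, and Cd48 lay at 5.04 to 7.31. In bulk samples, fewer cells of a type and less RNA per cell cannot be told apart.

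No listed gene passed the threshold of 0.05 after Benjamini-Hochberg adjustment over all genes (limma; lowest adjusted p = 0.125, for Bub1b), a threshold that 0.011% of all genes passed. At an unadjusted p under 0.05 there were 2 of the 34 genes, Bub1b and Hmmr, both higher in Lig4mut, and none lower, against 19.7% of all genes in either direction. Of all genes 15.5% were higher and 4.18% lower at that level. The share in the list, 5.88%, was thus no larger than that of the array as a whole. That background includes dim genes, those of the lowest mean levels, and none of the 34 listed genes was among them. Among the 10916 genes left without dim ones, 8.91% were higher at that level, against 8.82% of the list. The split of all genes at that level into higher and lower depends on the scaling, with 78.8% higher here and 55.4% in the values as deposited. Of the 34 genes 25 had higher values in Lig4mut, 73.5% against 61.4% of all genes, and 23 lay above the median difference of all genes. The median difference of the list was 0.36, which is 0.18 above that of all genes. Once dim genes were left out, the list's median lay 0.33 above that of the genes kept, 0.03. The 3 Lig4mut arrays all lay above the WT arrays for 3 genes (Bub1b, Hmmr and Cdk1), where 21% of all genes did so. They all lay below for 1 gene (Pbk), where 5.65% of all genes did so. Among the genes left without dim ones, 14.2% had all Lig4mut arrays above the WT arrays, against 8.82% of the list.

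**Figure D2:**
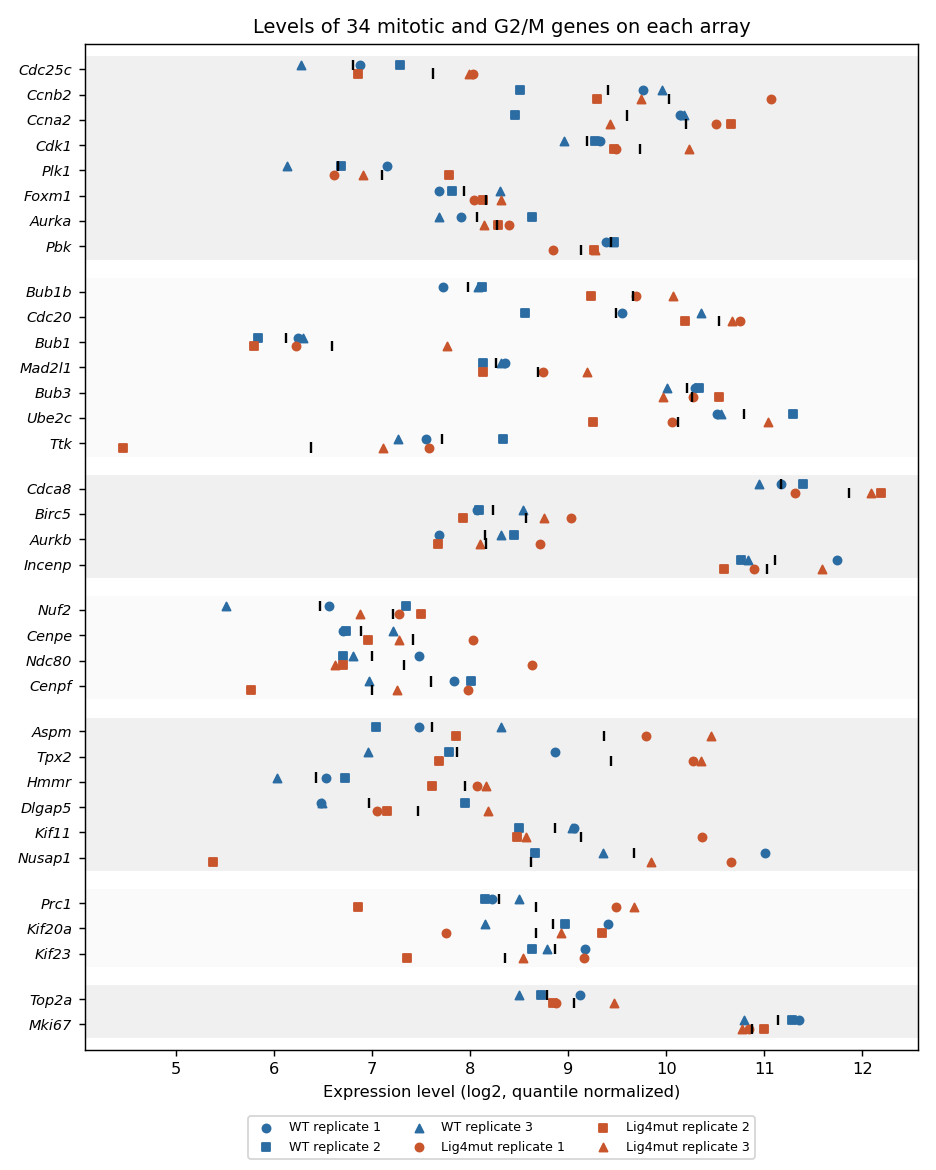
Log2 level of the 34 measured genes on each of the 6 arrays (x axis), with WT in blue and Lig4mut in orange, marker shape for the replicate number, a black tick for the mean of 3 arrays, and genes grouped by role. Only Bub1b, Hmmr, Cdk1 and Pbk show no overlap of the genotypes, and the Lig4mut replicate 2 array (squares) lies far to the left for Nusap1 and Ttk.

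Among the genes of mitotic entry (cyclins, kinases, Cdc25c and Foxm1), 7 of 8 measured genes had higher values in Lig4mut. None reached an unadjusted p under 0.05 (limma). Counts of higher values by role stand beside 61.4% of all genes. Cdk1, the kinase that drives entry into mitosis, was at 9.33, 9.28 and 8.96 in WT and at 9.48, 9.47 and 10.24 in Lig4mut. The Lig4mut arrays were all above the WT arrays, but 2 of them by a narrow margin, and the difference was 0.54 ± 0.27 (SE, n = 3 per genotype; limma, adjusted p = 0.339). Cdk1 has a single probe set, so no second reading of it was at hand. Plk1, the Polo kinase of centrosome maturation and mitotic exit, was at 7.15, 6.68 and 6.13 in WT and at 6.61, 7.79 and 6.91 in Lig4mut. These ranges overlapped, with a difference of 0.45 ± 0.42. Pbk, a mitotic protein kinase, was the gene with lower values, at 9.39, 9.47 and 9.46 in WT and at 8.84, 9.26 and 9.27 in Lig4mut. Its WT arrays were close together and all above the Lig4mut arrays, with a difference of -0.31 ± 0.17 (limma, adjusted p = 0.371).

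The remaining genes of mitotic entry overlapped between genotypes. The cyclin genes Ccnb2 and Ccna2 differed by 0.62 ± 0.62 and 0.61 ± 0.61 (SE). For Ccna2 the difference turned on the probe set, since the brighter one was at 0.61 and the other at -0.14. In the latter, Lig4mut replicates 1 and 3 were at 9.40 and 9.55, above the WT arrays at 8.27 to 8.48, while replicate 2 was at 5.66. Cdc25c, the phosphatase that activates CDK1, differed by 0.81 ± 0.44. Its second, dimmer probe set had all Lig4mut arrays (5.80 to 6.40) above all WT arrays (5.36 to 5.59), as had 16.6% of all probe sets. Foxm1, the transcription factor of the G2/M programme, differed by 0.23 ± 0.21. Of its 4 probe sets 1 was at the floor of 3, the lowest value deposited, on all 6 arrays, and none of the other 3 was lower in Lig4mut. Aurka, the centrosomal Aurora kinase, differed by 0.20 ± 0.28, with its second probe set at -0.52.

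In the spindle checkpoint and APC/C group, 5 of 7 genes had higher values, and 4 lay above the median difference of all genes. Bub1b had the lowest p-value of the whole list. Bub1b encodes BubR1, a checkpoint component that binds and inhibits the APC/C activator. It was at 7.72, 8.12 and 8.08 in WT and at 9.69, 9.23 and 10.07 in Lig4mut. The lowest Lig4mut array lay over 1 log2 unit above the highest WT array. The difference was 1.69 ± 0.26 (SE), 3.23-fold, with a 95% interval of 1.02 to 2.36 (limma, unadjusted p = 0.00116, adjusted p = 0.125). A second probe set of Bub1b was at 7.75, 7.99 and 7.07 in WT and at 8.70, 8.79 and 9.29 in Lig4mut. This reading from the same RNA also separated the genotypes, with a difference of 1.32 ± 0.31. Of all probe sets 16.6% had all Lig4mut arrays above the WT arrays. The third, dim probe set of Bub1b overlapped between the genotypes, with a difference of 0.33.

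Its partners in the checkpoint did not show such a separation. Bub1, the checkpoint kinase related to BubR1, was at 6.25, 5.83 and 6.29 in WT and at 6.22, 5.79 and 7.76 in Lig4mut. The difference of 0.47 ± 0.55 came from replicate 3, and without that array it was -0.12. Mad2l1, which encodes the checkpoint protein MAD2, differed by 0.43 ± 0.30, and Bub3, which brings BUB1 and BubR1 to kinetochores, by 0.05 ± 0.20. Bub3 has 5 probe sets with differences from -0.28 to 0.12, none of them beyond the spread of the arrays.

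Cdc20 encodes the activator that the checkpoint restrains. Its levels were 9.54, 8.56 and 10.36 in WT and 10.75, 10.19 and 10.67 in Lig4mut. WT replicate 3 reached into the Lig4mut range, and the difference was 1.05 ± 0.49 (limma, adjusted p = 0.32). It was 0.58 without WT replicate 2, 1.49 without WT replicate 3 and 0.56 in the probe set left without _x_at and _s_at ones. All 3 probe sets of Cdc20 were higher in Lig4mut, by 0.56 to 1.34. Ube2c, the ubiquitin-conjugating enzyme of the APC/C, had the other sign, with a difference of -0.68 ± 0.51. Ttk encodes the kinase MPS1, which starts checkpoint signalling. Its difference of -1.33 ± 0.90 was the most negative of the list and rested on 1 array: WT was at 7.55, 8.34 and 7.26 and Lig4mut at 7.58, 4.45 and 7.11. Without Lig4mut replicate 2 the difference was -0.36, and the second Ttk probe set was at 0.29.

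The chromosomal passenger complex carries Aurora B to centromeres and then to the midzone. Of its 4 genes 3 had higher values in Lig4mut and 2 lay above the median difference of all genes. The median of the 4 was 0.18, equal to that of all genes. Aurkb, the kinase of the complex, was at 7.68, 8.45 and 8.32 in WT and at 8.71, 7.68 and 8.10 in Lig4mut. The arrays were fully intermixed, with a difference of 0.01 ± 0.35 and a 95% interval of -0.88 to 0.91. Birc5, which encodes survivin, differed by 0.34 ± 0.34. Cdca8, which encodes borealin, differed by 0.69 ± 0.29, with all 3 probe sets higher (0.38 to 1.25). Incenp, the scaffold of the complex, differed by -0.08 ± 0.39 in its brightest probe set. Its 5 probe sets ran from -1.39 to 2.08. For 2 of them the Lig4mut arrays were all above the WT arrays, as for 16.6% of all probe sets, and for the brightest the genotypes overlapped.

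At the kinetochore, 3 of 4 genes had higher values, none beyond the spread of the arrays. Nuf2 and Ndc80, subunits of the complex that grips microtubules, differed by 0.75 ± 0.50 and 0.33 ± 0.62. For Ndc80, Lig4mut replicate 1 at 8.64 stood apart from the other 5 arrays, at 6.62 to 7.47. Cenpe, a kinetochore motor, differed by 0.54 ± 0.33, and Cenpf, a large kinetochore protein of late G2, by -0.60 ± 0.64. Without Lig4mut replicate 2 the Cenpf difference was 0.01.

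Genes of spindle assembly had the largest median difference of the 7 roles, 1.01, with 5 of 6 higher. That order rests on the brightest probe sets, since averaging all probe sets per gene gave a median of 0.14, below the checkpoint group (0.43) and mitotic entry (0.34). Hmmr encodes RHAMM, a microtubule-binding protein of the spindle. It was at 6.53, 6.72 and 6.03 in WT and at 8.07, 7.62 and 8.16 in Lig4mut. The genotypes did not overlap, and the difference was 1.52 ± 0.26 (SE), 2.87-fold, with a 95% interval of 0.87 to 2.18 (limma, unadjusted p = 0.00172, adjusted p = 0.13). Hmmr has 5 probe sets, of which 4 were higher in Lig4mut, by 0.57 to 1.52. The fifth went the other way, at 7.43, 6.18 and 8.37 in WT and at 7.34, 4.94 and 3.69 in Lig4mut. That reading, -2.01, brings the mean over all 5 to 0.33, with an unadjusted p of 0.445 in limma.

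Aspm, a microcephaly gene whose product focuses spindle poles, had the largest difference of the list. It was at 7.48, 7.04 and 8.32 in WT and at 9.79, 7.86 and 10.46 in Lig4mut, so replicate 2 fell in the WT range. The difference was 1.76 ± 0.76 (limma, adjusted p = 0.292), and it was 2.48 without Lig4mut replicate 2. The 5 probe sets of Aspm ran from -1.49 to 1.76, with 2 of them lower in Lig4mut and a mean over all of 0.0084. Of the other 4, the one with a difference of 0.84 also had replicates 1 and 3 high (9.35 and 7.85) and replicate 2 low (6.46).

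Tpx2 encodes the protein that activates Aurora A on spindle microtubules. It was at 8.86, 7.78 and 6.96 in WT and at 10.27, 7.68 and 10.35 in Lig4mut. Replicate 2 again lay within the WT range, and the difference of 1.57 ± 0.91 (limma, adjusted p = 0.406) was 2.41 without it. In contrast to Aspm, all 4 probe sets of Tpx2 were higher, by 0.38 to 1.57. For 2 dim ones, at mean levels of 4.49 and 4.95, all Lig4mut arrays lay above all WT arrays, as for 16.6% of all probe sets. Kif11, the kinesin that pushes spindle poles apart, differed by 0.27 ± 0.57, and Dlgap5, which stabilises spindle microtubules near chromosomes, by 0.49 ± 0.54. Nusap1, which bundles spindle microtubules, was at 11.01, 8.66 and 9.35 in WT and at 10.66, 5.37 and 9.84 in Lig4mut. Its difference of -1.05 ± 1.57 became 0.57 without Lig4mut replicate 2.

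Genes of the central spindle and of chromosome structure overlapped between genotypes in their brightest probe sets. Prc1, which bundles the microtubules of the midzone, was at 8.22, 8.15 and 8.50 in WT and at 9.48, 6.85 and 9.67 in Lig4mut. The Lig4mut arrays lay on either side of the WT range, which gave a difference of 0.38 ± 0.81, while the second probe set of Prc1 was at -1.64. The midzone kinesins Kif20a and Kif23 differed by -0.17 ± 0.54 and -0.51 ± 0.50. Top2a, the topoisomerase that untangles sister chromatids, was at 9.12, 8.72 and 8.50 in WT and at 8.88, 8.84 and 9.47 in Lig4mut. These overlapped (0.28 ± 0.26). Its dimmest probe set did not, at 5.50, 4.86 and 4.71 in WT and at 5.79, 5.54 and 5.68 in Lig4mut. That is a difference of 0.64 ± 0.24, with all Lig4mut arrays above the WT arrays, as for 16.6% of all probe sets. A further Top2a probe set differed by -0.12. Mki67, the gene of the proliferation antigen Ki-67, was at 11.36, 11.28 and 10.79 in WT and at 10.85, 11.00 and 10.77 in Lig4mut. Its difference was -0.27 ± 0.20, with a 95% interval of -0.78 to 0.23 (limma, adjusted p = 0.501), and it was 0.081 with arrays centred on their medians.

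**Figure D3:**
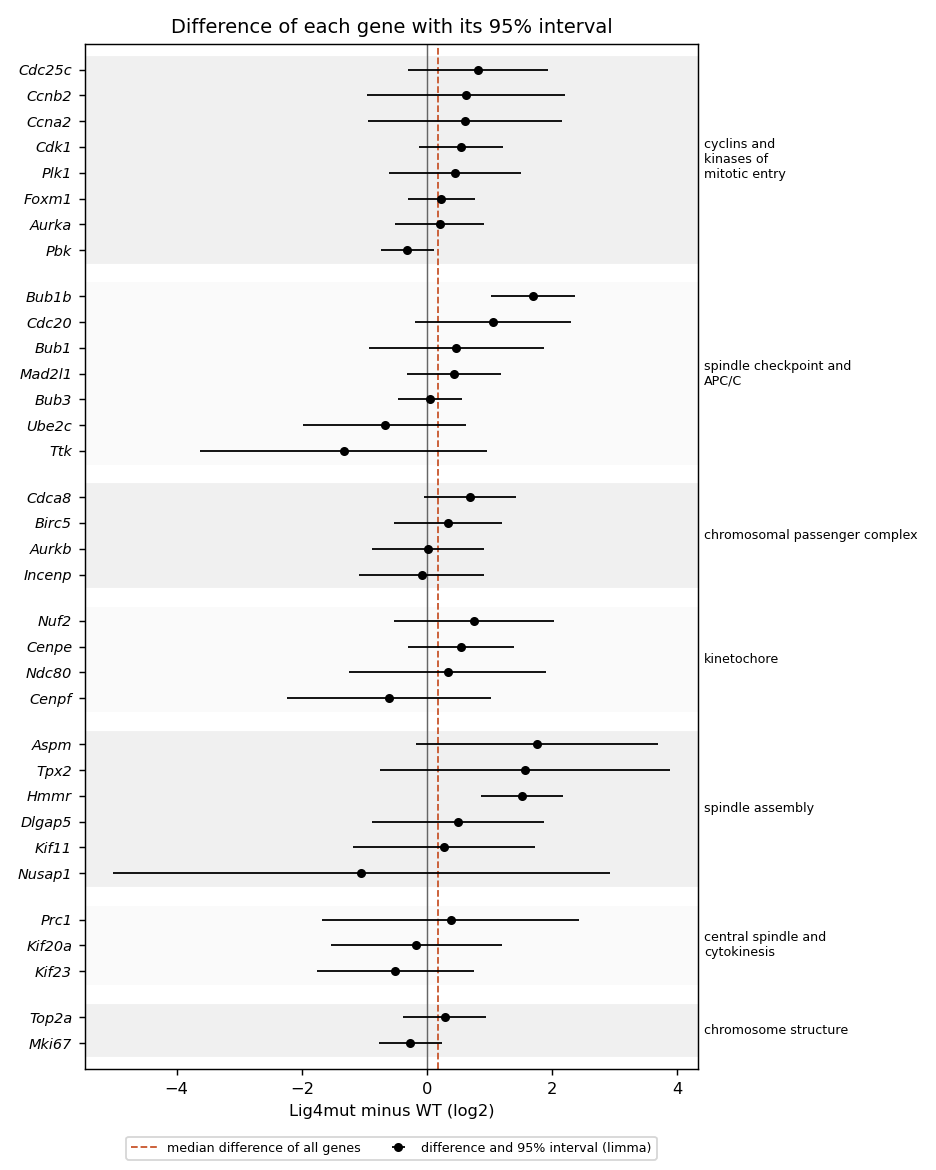
Difference Lig4mut minus WT (log2) of the 34 genes with its 95% interval from limma (3 arrays per genotype), grouped by role, with 0 as a solid line and the median difference of all genes, 0.18, dashed. The intervals of Bub1b (1.02 to 2.36) and Hmmr (0.87 to 2.18) exclude 0, and that of Nusap1 is the widest.

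Agreement between the probe sets of a gene was limited. Of the 23 listed genes with several probe sets, 9 (39.1%) had all of them on 1 side of 0, against 50.9% of the 9010 such genes on the array, which differ from the list in the number of probe sets per gene. Probe sets at the floor on all arrays were not counted as having a side. The genes with all probe sets higher were Bub1b, Tpx2, Cdc20, Cdca8, Kif11, Bub1, Cdc25c, Cenpe and Foxm1. Over all 80 probe sets 54 were higher and 26 lower or level. In the fit of every probe set, 9 of the 80 were higher at an unadjusted p under 0.05, 11.2% against 12.2% of all probe sets, and none lower, against 5.3%. In either direction 17.5% of all probe sets were at that level. The Lig4mut arrays all lay above the WT arrays for 11 of the 80 (13.8%), against 16.6% of all probe sets. They all lay below for 1 (1.25%), against 7.13% of all probe sets. None passed the adjusted threshold (limma), which 0.00286% of all probe sets passed.

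**Figure D4:**
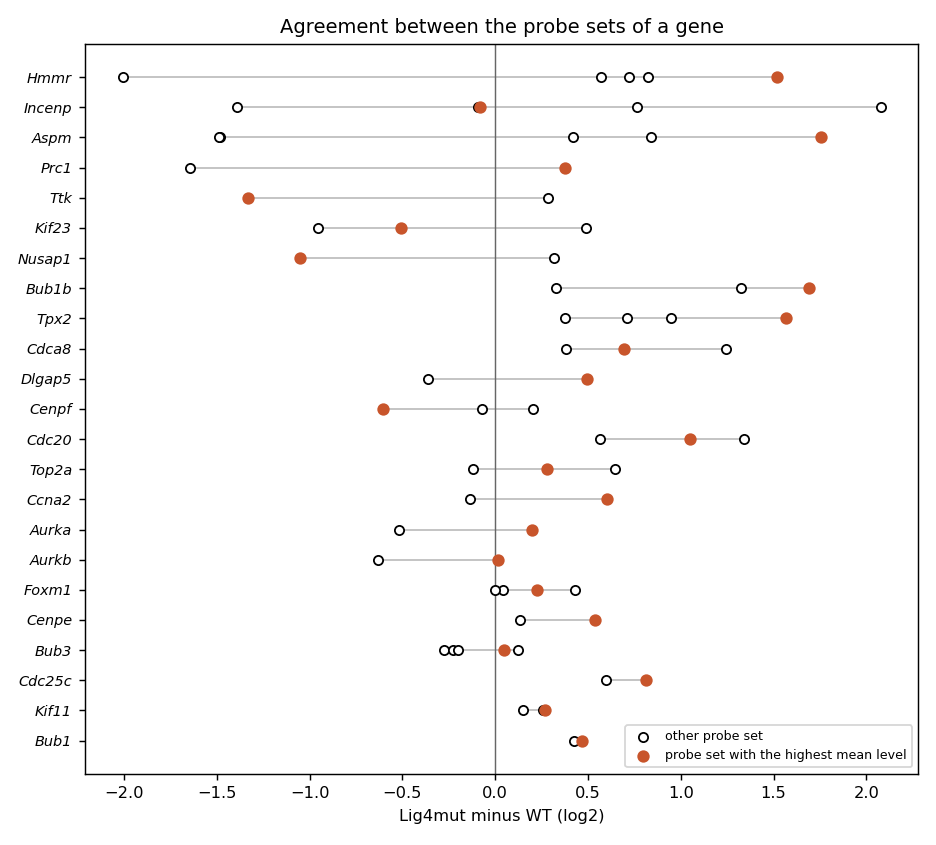
Difference Lig4mut minus WT (log2) of each probe set of the 23 genes with several, ordered by their spread; filled points are the probe sets with the highest mean level, which stand for the gene elsewhere. Hmmr, Incenp, Aspm and Prc1 have probe sets more than 2 log2 units apart, while all those of Bub1b, Tpx2, Cdca8 and Cdc20 lie to the right of 0.

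The Lig4mut arrays differed among themselves more than the WT arrays did. For listed genes the median SD was 0.41 in WT and 0.59 in Lig4mut, and for all genes it was 0.28 and 0.45. The mean level of the list on the WT arrays was 8.60 for replicate 1, 8.43 for replicate 2 and 8.35 for replicate 3. On the Lig4mut arrays it was 9.07 for replicate 1, 8.24 for replicate 2 and 9.04 for replicate 3. Lig4mut replicates 1 and 3 thus lay above every WT array and replicate 2 below them all. Lig4mut replicate 2 was the lowest of the 3 Lig4mut arrays for 22 of the 34 genes (64.7%), against 31.6% of all genes.

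Other readings moved with that array. Granulocyte markers, all 10 measured and none at the floor, had a mean level of 10.81 in Lig4mut replicate 2, against 6.33 and 6.94 in replicates 1 and 3 and 7.85 to 8.88 in WT. Their summed level was 78.5 to 88.8 in WT and 63.3 to 108.1 in Lig4mut. Mean HSC markers, 8 of 10 measured, were 9.19 in Lig4mut replicate 2, 10.17 and 9.94 in replicates 1 and 3 and 10.30 to 10.57 in WT. Xist, the transcript of the inactive X chromosome, was at 12.33 in Lig4mut replicate 2 and at 12.52 in WT replicate 3, the array with the lowest list mean of its own genotype, and at 4.84 to 5.82 on the other 4. The Y-linked genes Eif2s3y (5.08 and 6.15), Kdm5d (4.80 and 5.93) and Uty (4.46 and 3.62) were lowest on these same 2 arrays. On the other 4 they were at 8.92 to 10.50, 7.75 to 9.91 and 6.59 to 8.28. The labels give no sex of the mice. Marker lists also differed in level between the genotypes. All 7 measured B cell markers had higher values in Lig4mut, with a mean of 6.51 to 6.65 in WT and 6.87 to 7.65 in Lig4mut. So had 7 of 8 markers of macrophages and dendritic cells (6.05 to 6.73 and 7.34 to 7.52). Of all genes 61.4% had higher values, dim genes included, and the median difference of all genes fell from 0.18 to 0.03 without dim ones. Among these markers Cd79a, Ebf1 and Pax5 had mean levels of 5.56 to 5.99, and Marco, Adgre1 and C1qa of 4.07 to 5.55. Igll1, Csf1r and Siglech were at 6.21 to 6.66. Brighter were Cd79b, Ighm and Vpreb1 (8.04 to 8.96) and H2-Ab1, H2-Aa and Cd74 (8.97 to 9.98). The 5 markers of T and NK cells were also higher, but their means overlapped (5.32 to 5.85 in WT and 5.61 to 7.27 in Lig4mut). Higher values were also seen for 4 of 5 megakaryocyte markers, 3 of 6 measured erythroid markers and 2 of 8 HSC markers. The HSC markers Kit, Hlf and Meis1 were lower on every Lig4mut array than on any WT array, as were 5.65% of all genes. The 3 measured markers of CD48+ multipotent progenitors were all lower, with a mean of 7.65 to 8.20 in WT and 7.17 to 7.58 in Lig4mut. None of these markers passed the adjusted threshold (limma, lowest adjusted p = 0.125). No marker of these lists was at the floor on any array. With the Xist level as a covariate, Bub1b and Hmmr differed by 1.70 and 1.54, and again no listed gene passed the adjusted threshold (limma, lowest adjusted p = 0.193). The part of the cell type markers in the levels of the mitotic genes was not tested.

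Without Lig4mut replicate 2, 8 listed genes (23.5%) were higher at an unadjusted p under 0.05 (Aspm, Birc5, Bub1b, Cdc25c, Hmmr, Mad2l1, Prc1 and Tpx2), against 14.3% of all genes. In 11 genes (32.4%) the remaining Lig4mut arrays all lay above the WT arrays, against 27.4% of all genes. Again none passed the adjusted threshold (limma, lowest adjusted p = 0.159), and the list's median was 0.41 above that of all genes in place of 0.18. Without Lig4mut replicate 1 it was 0.067 and without replicate 3 it was 0.043. In these fits 3 genes (8.82%) and 2 genes (5.88%) were higher at an unadjusted p under 0.05 (limma), against 16.5% and 14% of all genes. Replicate 2 was the lowest Lig4mut array for most listed genes, so leaving it out raises the list by construction. Without WT replicate 2 or WT replicate 3 the genes with Lig4mut arrays all above WT numbered 7 each (20.6%), against 25.1% and 26.9% of all genes.

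**Figure D5:**
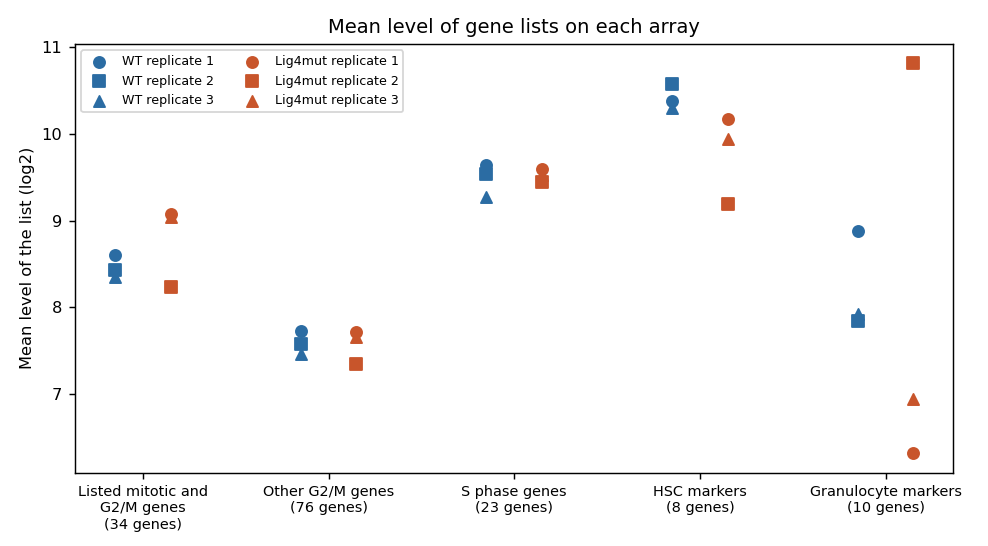
Mean log2 level on each array of the 34 listed genes, 76 other G2/M genes, 23 S phase genes, 8 HSC markers and 10 granulocyte markers, with WT in blue, Lig4mut in orange and marker shape for the replicate number. Lig4mut replicate 2 (orange squares) is the lowest of the 6 arrays for the listed genes (8.24), the other G2/M genes (7.35) and HSC markers (9.19) and highest for granulocyte markers (10.81).

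Other genes of G2 and mitosis showed differences in both directions. Of 76 measured, 41 had higher and 35 lower values, with a median difference 0.14 below that of all genes. Their mean level was also lowest in Lig4mut replicate 2, at 7.35 against 7.47 to 7.73 on the other 5 arrays. At an unadjusted p under 0.05, 6 were higher (7.89%) and 4 lower (5.26%), against 15.5% and 4.18% of all genes, and none passed the adjusted threshold (limma). The balance turned with the scaling. In the values as deposited 4 were higher (5.26%) and 6 lower (7.89%), against 6.73% and 5.42% of all genes. With cyclic loess 4 were higher (5.26%) and 5 lower (6.58%), against 8.71% and 4.36% of all genes. Centred on array medians 8 of the 76 were higher and 3 of the 76 lower, against 18.5% and 2.58% of all genes. The lower genes, named after their values were seen, were Arhgap11a (-0.90 ± 0.26), Spdl1 (-0.66 ± 0.24), Racgap1 (-1.21 ± 0.47) and Ncapg2 (-2.23 ± 0.86). The 4 genes with the lowest p were higher. Cit, the citron kinase of the cleavage furrow, was at 7.12, 6.97 and 6.85 in WT and at 7.95, 7.86 and 7.90 in Lig4mut, a difference of 0.93 ± 0.13 (limma, adjusted p = 0.125). The arrays of each genotype were close together and did not overlap. Cdca3, a trigger of mitotic entry, was at 7.46, 8.04 and 7.31 in WT and at 9.55, 8.89 and 8.96 in Lig4mut (1.53 ± 0.29), again with no overlap. Troap, a spindle-associated protein, differed by 1.22 ± 0.23 and the chromokinesin Kif22 by 0.64 ± 0.15. Of the 76 genes, 9.21% had all Lig4mut arrays above the WT arrays and 6.58% all below, against 21% and 5.65% of all genes.

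Of 23 measured S phase genes, 15 had higher values, with a median difference 0.049 below that of all genes. Cdc45, a subunit of the replicative helicase, was the 1 gene at an unadjusted p under 0.05, with a difference of 1.03 ± 0.21 (limma, adjusted p = 0.138). That is 4.35% of the S phase genes, against 19.7% of all genes in either direction. Next by p were Cdt1, the replication licensing factor (-1.20 ± 0.56), Gins2 of the helicase (0.32 ± 0.17) and the G1/S cyclin Ccne2 (-1.36 ± 0.75). Over the 6 arrays, the genes outside the list whose values followed the list mean most closely were Kif9 (Pearson r = 0.993), BC023105 (r = 0.99) and Dnal4 (r = 0.99), picked from all genes and given as a description without a test. Kif9 was at 6.66, 6.43 and 6.27 in WT and at 8.19, 5.85 and 7.91 in Lig4mut, high in replicates 1 and 3 and low in replicate 2.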

How the data were processed

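Expression was measured on 1-colour Affymetrix arrays, 3 per genotype. The authors deposited log2 values per probe set, made with RMA per the submitters' processing notes, with a floor of 3 on all 6 arrays. RNA was amplified with the Ovation Pico WTA kit per the series' design text, while the labels' protocol names the standard Affymetrix cRNA method. Gene names came from the platform's annotation, with symbols updated to NCBI's table for GRCm38.p6. Array distributions differed, so all 45101 probe sets were quantile normalized. The probe set with the highest mean stood for a gene. Tests on genes, and in a second fit on probe sets, used limma 3.58.1 under R 4.3.3 (lmFit, eBayes, two-sided, no filter), with Benjamini-Hochberg adjustment over all and a threshold of 0.05. The fits were tested on simulated data with independent arrays, the same spread in both genotypes and added changes larger than any difference of the list. That check holds no array effect, scaling step or larger Lig4mut spread, so it does not cover these features of the data. An exact test of 3 against 3 cannot go below p = 0.1 and was not used. An array has no sequencing depth. Precision is limited by how many there are.

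Members, lists and rules were chosen with earlier results of these data known. Array values were given for genes with an unadjusted p under 0.05, those with no overlap of genotypes, the 3 largest differences, and Cdk1, Plk1, Aurkb, Top2a and Mki67. Of other lists the 4 genes with the lowest p were named. Other values were added after they were seen. Alternatives were the replicate block, leaving out each array, values as deposited, median centring, cyclic loess, dropping dim genes (lowest 40% by mean level), trend and robust moderation, array weights, the mean of probe sets and leaving out _x_at and _s_at probe sets. The Xist level as a covariate was added after seeing the data.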

Additional observations from a re-analysis of the deposited data

How the results depend on the processing

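The adjusted threshold was passed by 0 listed genes under each of the 16 alternatives (limma, with 2 to 8 genes higher at an unadjusted p under 0.05). Bub1b differed by 1.11 to 1.92 and Hmmr by 0.33 to 1.69, where the lowest Hmmr value, with the mean of probe sets, had an unadjusted p of 0.445 in limma. Samples with the same replicate number did not deviate together (r = 0.036, 0.01 and -0.032), and the main fit does not pair them. Such values cannot exclude that samples with the same number were handled together. With the replicate block there were 4 listed genes (11.8%) higher at an unadjusted p under 0.05, against 11.7% of all genes, and 1 probe set lower, and the block changed no call at the adjusted threshold for the listed genes. In the values as deposited 4 of the 80 probe sets (5%) were higher and 2 of the 80 lower, against 5.33% and 7.31% of all probe sets. Centred on array medians 6 genes (17.6%) and 15 probe sets (18.8%) were higher, against 18.5% of all genes and 14.4% of all probe sets, and 7 genes (20.6%) had Lig4mut arrays all above WT, against 30.1%. The other G2/M genes lower numbered 2 with dim genes left out, where fewer than the 76 were kept, against 4.36% of all genes kept. With trend and robust moderation 2 of the 76 were lower, against 3.93% of all genes. With the Xist level as a covariate, 4 listed genes (11.8%) were higher, against 14.2% of all genes.

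Leaving out each array gave 2 to 8 listed genes higher and 0 to 1 lower, 4 to 11 genes with Lig4mut all above WT, 5 to 15 probe sets higher and 0 to 4 lower, and 3 to 9 other G2/M genes higher and 0 to 7 lower. In the same fits 9.73% to 16.5% of all genes were higher and 2.96% to 6.09% lower. Of all genes, 25.1% to 29.4% had Lig4mut all above WT. Of all probe sets, 7.68% to 12.9% were higher and 4.09% to 7.37% lower. Of 34 genes 22 kept their sign under these alternatives, but only 15 stayed on 1 side of the median of all genes (9 above, 6 below). Aurkb reversed in the values as deposited (-0.12), with cyclic loess (-0.018) and with the mean of probe sets (-0.31). Incenp reversed with median centring (0.26), cyclic loess (0.0275) and the mean of probe sets (0.25). Median centring reversed Kif20a (0.091) and Mki67 (0.081). The mean of probe sets reversed Aurka (-0.16), Bub3 (-0.11) and Prc1 (-0.63), and leaving out _x_at and _s_at probe sets reversed Bub3 (-0.28) and Prc1 (-1.64). Leaving out an array gave ranges across 0 for Aurkb (-0.26 to 0.25), Incenp (-0.37 to 0.23), Kif20a (-0.52 to 0.29), Bub3 (-0.088 to 0.19), Kif11 (-0.34 to 0.59), Ndc80 (-0.33 to 0.67), Prc1 (-0.12 to 1.27), Cenpf (-1.08 to 0.0114), Nusap1 (-2.06 to 0.57) and Bub1 (-0.12 to 0.86). The cause of these changes was not tested beyond what each alternative leaves out. With 3 arrays a genotype, differences under about the printed intervals cannot be told from 0.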
